A study of Arabidopsis thaliana with 18 samples.

Results

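The 57 cytosolic ribosomal protein genes described here encode proteins of the large (60S) subunit, the small (40S) subunit and the P stalk of the Arabidopsis thaliana ribosome. They were chosen by locus from a fixed list, and a gene was kept where it reached 1 FPKM in at least 1 group (fragments per kilobase of transcript, scaled to sequencing depth, a level that allows for transcript length). All 57 were found among the 33557 genes of the table and all 57 were kept, of 19639 genes kept in all. The annotation records of 56 members name a structural constituent of the ribosome, and those of 46 name the cytosolic ribosome. The members belong to 26 protein families, with 28 genes in the large subunit, 23 in the small subunit and 6 in the P stalk, and they lie on all 5 chromosomes, 10 to 13 to each.

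The study sequenced RNA from the whole aerial parts of a Swedish (SW) and an Italian (IT) natural ecotype, and its title concerns the CBF cold-response pathway and local adaptation. The 6 groups were SW plants and IT plants, each after 1 week at 4 °C, after 2 weeks at 4 °C, and warm at 22 °C, with 3 libraries a group (18 in all). All plants first grew on soil at 22 °C in a 12 h photoperiod, the warm groups were harvested after 18 days, and all tissue was taken 4 h after lights on. The light was dimmer in the cold (35 µmol m-2 s-1, against 100 to 120 in the warm), and cold plants were older, so cold, light and age cannot be told apart. The table gave 1 pooled value per gene and group, so no spread between plants, no error and no p-value could be given, and every difference below is a ratio of 2 pooled values without a replicate check.

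A ribosome joins ribosomal RNAs with a large set of proteins, most of which it holds as single copies. In plants each of these proteins is encoded by a small family of near-identical genes, all of which can be transcribed in the same tissue. Ribosomal protein transcripts are among the most abundant of growing tissue, and their levels and translation respond to light, sugar, temperature and the growth-controlling TOR kinase. A pair of elements is known from the promoters of such genes in Arabidopsis, the telo box and the site II element, bound by separate groups of DNA-binding proteins. The plastid has a ribosome of its own, encoded by other genes.

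The 250 bases before the annotated gene start of 6 members that the results turn on are given first, 5′ to 3′ on the gene's strand, from the RefSeq TAIR10.1 reference, which is not the sequence of either ecotype. The S8 gene AT5G20290 was the most abundant member, STV1 and RPL24A are the pair of one strongly cold-responsive family, the S8 gene AT5G59240 had the largest cold ratio, RPL3B was the one member higher at 2 weeks than at 1 week in IT, and the S3 gene AT5G35530 had the smallest cold ratios in SW. Capitals mark the telo box (AAACCCTA) and 2 forms of the site II element (TGGGCC and TGGGCT), on either strand.

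S8 gene AT5G20290, chr5:6853107-6853356, minus strand: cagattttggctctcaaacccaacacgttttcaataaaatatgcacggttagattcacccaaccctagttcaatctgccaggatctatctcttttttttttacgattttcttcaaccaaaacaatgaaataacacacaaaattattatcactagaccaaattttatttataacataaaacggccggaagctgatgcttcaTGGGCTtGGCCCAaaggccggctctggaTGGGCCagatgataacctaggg
STV1 (L24), chr3:19662026-19662275, minus strand: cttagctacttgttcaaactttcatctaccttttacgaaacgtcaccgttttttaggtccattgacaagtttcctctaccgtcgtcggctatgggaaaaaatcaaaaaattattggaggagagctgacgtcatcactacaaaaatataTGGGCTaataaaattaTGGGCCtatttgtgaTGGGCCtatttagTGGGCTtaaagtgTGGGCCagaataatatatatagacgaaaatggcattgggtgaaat
RPL24A (L24), chr2:15352014-15352263, minus strand: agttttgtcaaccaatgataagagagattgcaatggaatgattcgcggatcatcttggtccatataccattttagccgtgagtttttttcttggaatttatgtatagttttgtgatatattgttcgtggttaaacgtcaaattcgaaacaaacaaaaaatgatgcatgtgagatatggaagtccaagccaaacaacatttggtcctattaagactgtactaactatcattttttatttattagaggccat
S8 gene AT5G59240, chr5:23903768-23904017, minus strand: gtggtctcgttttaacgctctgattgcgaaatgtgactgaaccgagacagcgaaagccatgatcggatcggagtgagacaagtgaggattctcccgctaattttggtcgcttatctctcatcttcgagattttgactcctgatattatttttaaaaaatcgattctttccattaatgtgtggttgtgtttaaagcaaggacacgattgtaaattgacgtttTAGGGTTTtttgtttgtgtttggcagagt
RPL3B (L3), chr1:22723153-22723402, minus strand: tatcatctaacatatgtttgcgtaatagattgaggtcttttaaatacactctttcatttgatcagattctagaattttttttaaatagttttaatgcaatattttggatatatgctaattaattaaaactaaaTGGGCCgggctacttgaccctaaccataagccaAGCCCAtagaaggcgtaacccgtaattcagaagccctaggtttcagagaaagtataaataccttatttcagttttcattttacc
S3 gene AT5G35530, chr5:13712289-13712538, minus strand: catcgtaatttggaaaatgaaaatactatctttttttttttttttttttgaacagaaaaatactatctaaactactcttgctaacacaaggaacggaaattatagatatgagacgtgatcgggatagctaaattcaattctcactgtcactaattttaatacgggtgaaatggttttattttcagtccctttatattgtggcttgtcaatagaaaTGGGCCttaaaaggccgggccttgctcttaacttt

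STV1 carried 5 site II matches within 102 bases of its start, whereas its paralog RPL24A carried none and no telo box in this window. The S8 gene AT5G59240 carried a telo box and no site II element. Over all 57 members, searched on both strands with overlapping matches allowed, 39 promoters (68.4%) held at least 1 form of site II, against 19.2% of all 27443 gene promoters of the same length. A telo box stood in 12 member promoters (21.1%, against 4.49% of all promoters), and 9 members held both elements (15.8%, against 1.36% of all). The letters TATAAA stood in 29 member promoters (50.9%, against 47.3% of all), a share near that of all genes. A match describes letters in this window and is not a measured binding site.

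Member transcripts were abundant in every group. The median member level was 243 FPKM in warm SW plants, 446 FPKM at 1 week and 469 FPKM at 2 weeks, and 181, 595 and 408 FPKM in IT plants at the same times, against a median of 10.4 to 10.9 FPKM over all kept genes. As a share of all FPKM in a column, the 57 genes made up 1.55% in warm SW plants, 2.67% at 1 week and 2.64% at 2 weeks. In IT plants they made up 1.29% in the warm, 3.41% at 1 week and 2.58% at 2 weeks. Of the members, 45 stood at 100 FPKM or more in every group and 6 stood below 100 FPKM in every group. In bulk tissue, more cells that use a gene and more RNA per cell cannot be told apart.

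**Figure D1:**
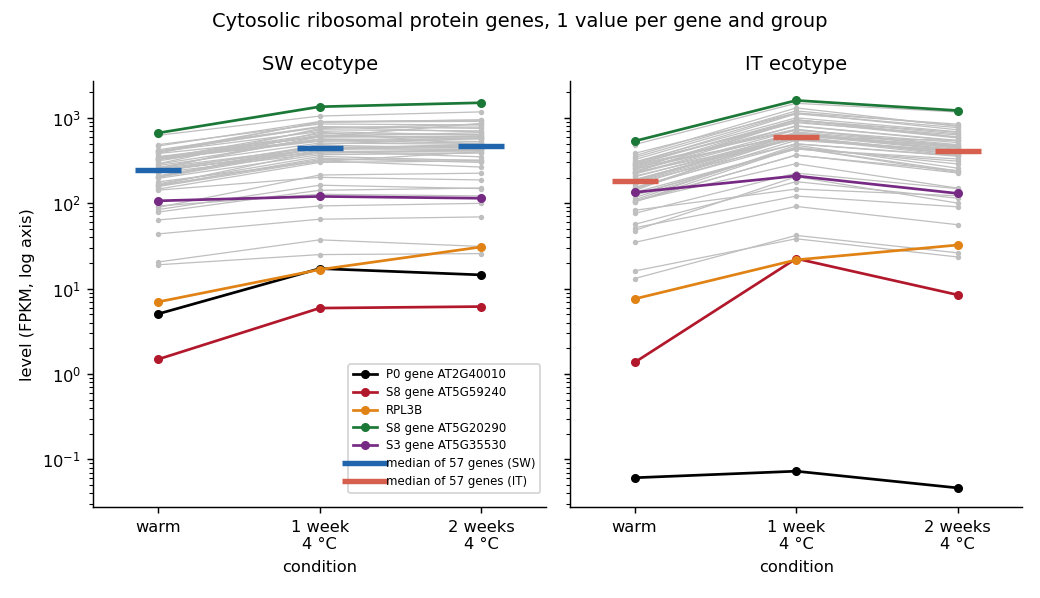
Levels of the 57 genes (FPKM, log axis) in the SW and IT ecotypes, warm and after 1 and 2 weeks at 4 °C; each line is 1 gene with 1 pooled value per group, and horizontal bars are medians. Nearly all IT lines peak at 1 week, the SW lines are near level between 1 and 2 weeks, and the P0 gene AT2G40010 lies under 0.1 FPKM in all 3 IT groups.

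The tissue and its other transcripts were checked with marker lists. Of 4 leaf markers, CA1, LHCB4.2 and GAPB stood between 437 and 2406 FPKM, and RBCS1A was listed at 0 in all groups. The leaf markers summed to 5359 FPKM in warm SW plants, 2532 at 1 week and 3138 at 2 weeks, and to 3819.5, 2137 and 2194 FPKM in IT plants. The 5 root markers summed to 0.65 FPKM or less in every group, and the 4 flower markers to 1.18 FPKM or less except in IT plants at 2 weeks (5.74 FPKM). The 12 markers of dividing cells summed to 110 FPKM in warm SW plants, 89.7 at 1 week and 123 at 2 weeks, and to 89.7, 131 and 137 FPKM in IT plants. At least 2-fold higher than in the warm were PCNA1 in IT plants at 1 week and CYCB1;1 in IT plants at 2 weeks, and none of the 12 in SW plants. The part of dividing cells in the results below was not tested.

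The first comparison asks how the genes differ between cold and warm plants within an ecotype. After 1 week at 4 °C, all 57 members were above their warm level in SW and all 57 were above it in IT. Over all genes 51.9% were above it in SW and 49.9% in IT. The IT count of members includes AT2G40010, at 0.061 FPKM in the warm and 0.073 at 1 week. The scale is log2(FPKM + 1), used for every ratio here. The median log2 ratio was 0.93 in SW and 1.69 in IT, while that of all genes with a ratio was 0.03 in SW and -0.002 in IT. In SW 20 members were at least 2-fold higher, beside 7.81% of all genes, and none was 2-fold lower, beside 6.2%. In IT 54 members were at least 2-fold higher, beside 10% of all genes, and none was 2-fold lower, beside 7.91%. The interquartile range of the members' ratios was 0.30 in SW and 0.37 in IT, against 0.79 in SW and 0.91 in IT over all genes.

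After 2 weeks the median log2 ratio against warm was 0.90 in SW and 1.11 in IT, against 0.01 in SW and 0.04 in IT over all genes. In SW 19 members were at least 2-fold higher (6.54% of all genes) and in IT 40 were (7.03% of all genes), with none lower, beside 7.47% of all genes in SW and 6.43% in IT. The 2-fold counts depended on scaling: after quantile normalization 4 SW members (7.02%, beside 6.57% of all genes) and 42 IT members (73.7%, beside 9.06%) reached 2-fold at 1 week. At 2 weeks 7 SW members (12.3%, beside 5.65%) and 14 IT members (24.6%, beside 6.19%) did. The SW share at 1 week was then near that of all genes. Reference-gene scaling left 6 members (10.5%, beside 3.19% of all genes) at 2-fold in SW at 2 weeks, with a median of 0.51 beside -0.30 for all genes.

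**Figure D2:**
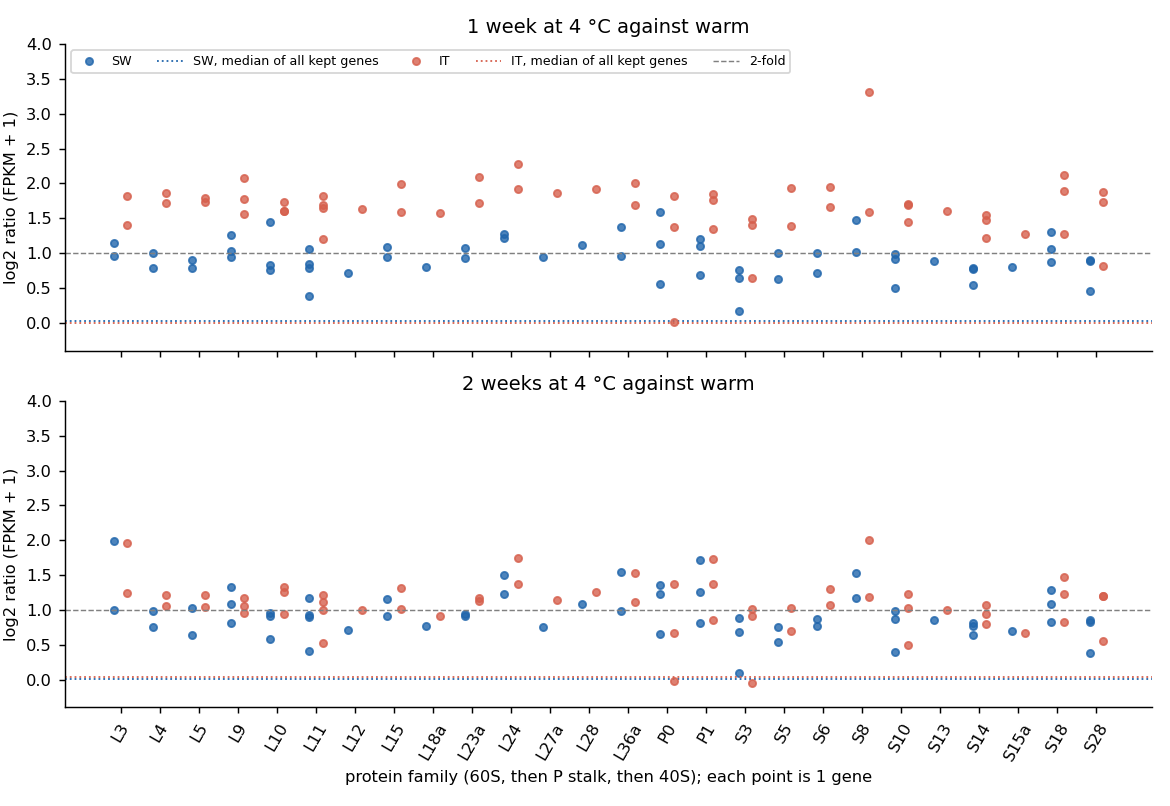
Log2 ratios of 4 °C against warm for each of the 57 genes (points), by protein family, at 1 week and 2 weeks, SW in blue and IT in red; dotted lines are medians of all kept genes and the dashed line is 2-fold. At 1 week most IT points lie above the SW points of their family, and at 2 weeks the ecotypes overlap.

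The large-subunit genes covered a range of functions. L3 and L4 help to shape the peptidyl transferase centre and the exit tunnel, and L23a sits at the tunnel's mouth. L5 and L11 bind the 5S ribosomal RNA, L10 sits near the tRNAs, and L24 faces the small subunit. Over the 28 genes the median log2 ratio was 0.95 in SW and 1.73 in IT at 1 week, and 0.95 in SW and 1.16 in IT at 2 weeks. All 28 were at least 2-fold higher in IT at 1 week, as were 11 in SW.

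Both L24 genes were among the more responsive members. RPL24A had 202 FPKM in warm SW plants, 490.0 at 1 week and 575 at 2 weeks, and 140.3, 683 and 475 FPKM in IT plants. Its log2 ratios at 1 week were 1.27 in SW and 2.28 in IT, and at 2 weeks 1.503 in SW and 1.75 in IT. STV1, named for the short valves of a mutant's fruit, had 386, 894 and 909 FPKM in SW plants and 295, 1114 and 768 FPKM in IT plants. Summed over both genes, L24 had the largest 1 week ratio of the 26 families in each ecotype, 1.23 in SW and 2.04 in IT. Both genes were at least 2-fold higher in all 4 comparisons of cold with warm. In the reference promoter window RPL24A carried no site II letters and STV1 carried 5. Whether these letters bear on the cold ratios was not tested.

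RPL3B, the minor gene of the L3 family, differed from the other members in its time course, by direction in IT and by size in SW. It had 6.99 FPKM in warm SW plants, 16.7 at 1 week and 30.8 at 2 weeks, and 7.57, 21.7 and 32.4 FPKM in IT plants. It was highest at 2 weeks in each ecotype. In IT no other member was above its 1 week level at 2 weeks, while in SW 31 members were. The log2 ratio of 2 weeks to 1 week for RPL3B was 0.84 in SW and 0.56 in IT, the highest of the members in each. RP1, the major L3 gene, had 468, 905 and 939.6 FPKM in SW plants and 342, 1207 and 811 FPKM in IT plants. RPL3B was therefore 3.17% of the L3 transcripts at 2 weeks in SW and 3.84% in IT, against 1.47% in warm SW plants and 2.17% in warm IT plants.

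Other large-subunit genes with ratios near the upper end in IT at 1 week were RPL23AB (2.09) and the L9 gene AT4G10450 (2.07). RPL23AB had 159, 337 and 300.4 FPKM in SW plants and 104, 446 and 229 FPKM in IT plants. At the lower end was RPL16A, an L11 gene of low level, with 19.0, 25.03 and 25.7 FPKM in SW plants and 16.1, 38.4 and 23.4 FPKM in IT plants. The L36a gene AT4G14320, with 289.7, 750.2 and 844 FPKM in SW plants and 232, 939.7 and 676 FPKM in IT plants, was at least 2-fold higher in all 4 comparisons.

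The P stalk is a flexible arm of the large subunit that recruits the translation factors hydrolysing GTP. P0 is its base and P1 one of the proteins bound to P0. Of the 6 genes, 4 in SW and 5 in IT were at least 2-fold higher at 1 week, and 4 in SW and 3 in IT at 2 weeks. The P1 gene AT5G47700 had 260.3 FPKM in warm SW plants, 601 at 1 week and 861 at 2 weeks, and 164, 595 and 544 FPKM in IT plants. Its 2 week log2 ratio was 1.72 in SW and 1.72 in IT. It was the highest P1 gene at 1 and 2 weeks in SW and at 2 weeks in IT.

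The P0 gene AT2G40010 was listed near 0 in one ecotype. It had 5.05 FPKM in warm SW plants, 17.2 at 1 week and 14.5 at 2 weeks, and 0.061, 0.073 and 0.046 FPKM in IT plants. Each of the 3 SW values lies far above all 3 IT values, and the log2 ratios of SW to IT on the FPKM + 1 scale were 2.51 in the warm, 4.08 at 1 week and 3.89 at 2 weeks. It was the member with the highest 1 week ratio in SW (1.59) and the lowest in IT (0.02), where its values were all under 0.1 FPKM. At its highest it made up 1.77% of P0 transcripts, most of which came from AT3G09200 (405, 885 and 949 FPKM in SW plants and 324, 1141 and 843 FPKM in IT plants).

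The small-subunit proteins hold and decode the messenger RNA, and S6 is the long-known phosphorylation target of S6 kinase below TOR. Over the 23 genes the median log2 ratio was 0.87 in SW and 1.58 in IT at 1 week, and 0.83 in SW and 1.026 in IT at 2 weeks. At 1 week 5 of them were at least 2-fold higher in SW and 21 in IT, and at 2 weeks 4 in SW and 14 in IT.

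The 2 S8 genes stood at opposite ends of the range of levels. AT5G20290 was the most abundant member in each group, with 665 FPKM in warm SW plants, 1350.3 at 1 week and 1503 at 2 weeks, and 534, 1601 and 1218 FPKM in IT plants. AT5G59240 had 1.49, 5.91 and 6.16 FPKM in SW plants and 1.36, 22.5 and 8.44 FPKM in IT plants. Its IT value at 1 week was the highest of the 6 groups, and its log2 ratio of 3.31 there was the largest of the members. With FPKM + 1, ratios understate the change of a gene this low: as plain FPKM, IT plants at 1 week had 16.5 times the warm level.

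RPS6 had 312, 628 and 569.9 FPKM in SW plants and 235, 908 and 582 FPKM in IT plants. EMB3010, the other S6 gene, had 244, 402 and 419 FPKM in SW plants and 203, 643 and 427 FPKM in IT plants. At 1 week the log2 ratio was 1.01 in SW and 1.95 in IT for RPS6, and 0.72 in SW and 1.66 in IT for EMB3010. The S18 gene AT1G34030 had 163, 405 and 349.5 FPKM in SW plants and 109, 478 and 257 FPKM in IT plants, with 1 week ratios of 1.30 in SW and 2.12 in IT. PFL, the S18 gene named for its pointed first leaves, was also at least 2-fold higher in all 4 comparisons.

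The S3 gene AT5G35530 and the S28 gene AT3G10090 did not reach 2-fold in any of the 4 comparisons. AT5G35530 had 107 FPKM in warm SW plants, 120.1 at 1 week and 114 at 2 weeks, and 134, 209 and 130.2 FPKM in IT plants. Its log2 ratios at 1 week were 0.17 in SW and 0.64 in IT, and at 2 weeks 0.10 in SW and -0.04 in IT. AT3G10090 had 92.9, 127 and 122 FPKM in SW plants and 82.6, 147 and 122 FPKM in IT plants. The other S3 and S28 genes had higher ratios in each of these comparisons. RPS28, the S28 gene with the largest 1 week ratio in IT, had 235, 436 and 427 FPKM in SW plants and 181, 667 and 414 FPKM in IT plants. The S10 gene AT4G25740 was also among the lowest, with 2 week ratios of 0.39 in SW and 0.50 in IT. The S14 gene AT3G52580 had 63.7, 93.0 and 99.7 FPKM in SW plants and 51.6, 121 and 90.8 FPKM in IT plants. RPS5A, needed for embryo growth, had 348, 540.4 and 504 FPKM in SW plants and 281, 737 and 454 FPKM in IT plants.

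More members passed 2-fold in IT than in SW, and most SW calls but fewer of the IT calls were shared. Of the 20 SW members at 1 week, 19 (95.0%) were among the 54 of IT, of which they were 35.2%. The exception was AT2G40010, whose IT values lay far below 1 FPKM at every time (0.061, 0.073 and 0.046 FPKM). Of all 57 members 94.7% passed in IT at 1 week, close to the 95.0% shared. At 2 weeks 17 of the 19 SW members (89.5%) were among the 40 of IT (42.5%), and the others were AT2G40010 and PGY2. In IT 70.2% of all members passed at 2 weeks. Over all genes 54.1% of the SW calls and 42.1% of the IT calls at 1 week were shared, and 53.7% of the SW calls and 49.9% of the IT calls at 2 weeks. In all 4 comparisons 14 members passed, from the families L3, L9, L15, L24, L28, L36a, P0, P1, S8 and S18. The share of all genes passing in all 4 was not computed. This count holds for the deposited values, and fewer SW members reached 2-fold after quantile normalization, as given above.

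The second comparison asks how the levels moved between the first and second week. In IT 56 of 57 members were lower at 2 weeks than at 1 week, beside 48.8% of all genes. The median log2 ratio of the members was -0.59, against 0.01 over all genes. Of the members, 2 were at least 2-fold lower (beside 1.48% of all genes), and none was 2-fold higher (beside 1.81%). The 2 were the S8 gene AT5G59240 (-1.31) and the L9 gene AT4G10450 (-1.02). In SW 31 members were above and 26 below their 1 week level, beside 49.4% and 50.6% of all genes. The member median in SW was 0.01, and became -0.35 under reference-gene scaling (all genes -0.31) and -0.075 after quantile normalization. None passed 2-fold there in either direction, beside 0.408% of all genes higher and 2.88% lower. SAG24, an L10 gene first described from senescing leaves, was the lowest in SW at -0.49, with 679 FPKM at 1 week and 484 FPKM at 2 weeks.

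The IT value at 1 week was the highest of the 6 groups for 51 members, and the IT warm value was the lowest of the 6 for 53. No share over all genes was computed for these 2 counts. They hold for the deposited values, and medians between the ecotypes moved with scaling, as given below. All 26 families, summed over their genes, were at least 2-fold higher at 1 week in IT, and 7 were in SW. At 2 weeks 20 families were at least 2-fold higher in IT and 11 in SW.

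The third comparison sets the ecotypes side by side in each condition. In the warm, 54 of 57 members were higher in SW than in IT, beside 52.8% of all genes. The median log2 ratio was 0.40, against 0.02 over all genes. At 1 week 52 were lower in SW, beside 48.8% of all genes, with a median of -0.38 against 0.01 over all genes. At 2 weeks 48 were higher in SW, beside 52.6% of all genes, with a median of 0.24 against 0.02 over all genes. However, the member median was -0.072 under reference-gene scaling (all genes -0.24) and -0.084 after quantile normalization. Few passed 2-fold. In the warm it was 1 member higher in SW (AT2G40010, beside 2.68% of all genes) and none lower (beside 4.22%). At 1 week it was 1 higher (AT2G40010, beside 4.57%) and 1 lower (AT5G59240 at -1.76, beside 3.95%). At 2 weeks it was 2 higher (AT2G40010 and PGY2, beside 3.92%) and none lower (beside 7.19%). AT2G40010 was kept only for its SW values, since its IT values were all far below 1 FPKM. The PGY2 value depends on how reads were split between it and its near-identical neighbour AT1G33120, which was not tested.

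The cold response itself, taken as the difference of the log2 ratios, was smaller in SW than in IT at 1 week for 56 of 57 members, with a median of -0.78 against 0.01 over all genes. At 2 weeks it was smaller for 49 members, with a median of -0.16 against -0.02. Over all genes the response was smaller in SW for 49.4% at 1 week and 52.3% at 2 weeks. These differences join the warm and cold comparisons above and were not tested. Beside AT5G59240 (-1.84), the SW response at 1 week was lower by 1 or more for AT4G10450 (-1.13), RPL23AB (-1.01) and RPL24A (-1.002), which is 4 members beside 2.43% of all genes. It was higher by 1 or more for AT2G40010 alone (1.57), beside 4.89% of all genes. AT2G40010 had 0.061, 0.073 and 0.046 FPKM in IT plants, so the added 1 FPKM kept its IT ratios small. Its difference at either time therefore cannot show a stronger SW response. At 2 weeks AT2G40010 (1.37) was again the one member higher by 1 or more, beside 3.07% of all genes, and none was lower by as much, beside 4.21%.

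In the warm the highest ratios of SW to IT after AT2G40010 were those of PGY2 (0.94), the L9 gene AT4G10450 (0.80), the L11 gene AT5G45775 (0.70) and the P1 gene AT4G00810 (0.69). The lowest were those of AT5G35530 (-0.33), AT1G33120 (-0.24), RPL3B (-0.10), AT5G59240 (0.07) and AT3G10090 (0.17). At 2 weeks the highest after AT2G40010 were those of PGY2 (1.07), AT5G47700 (0.66), AT4G00810 (0.57) and AT4G10450 (0.56). The lowest were those of AT5G59240 (-0.40), AT1G70600 (-0.22), AT5G35530 (-0.19), AT1G33120 (-0.10) and the S14 gene AT3G11510 (-0.07). PGY2, AT4G10450 and AT4G00810 were thus near the top, and AT5G35530, AT1G33120 and AT5G59240 near the bottom, at both times. PGY2 and AT1G33120 have nearly the same coding sequence, as described below. Their ratios of SW to IT at every time depend on how shared reads were split between them, which was not tested.

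Among the smallest ratios of SW to IT at 1 week were AT5G35530 (-0.79), the L9 gene AT1G33120 (-0.77), the L27a gene AT1G70600 (-0.74) and EMB3010 (-0.68). AT1G70600 had 405 FPKM in warm SW plants, 783 at 1 week and 683 at 2 weeks, and 359, 1307 and 796 FPKM in IT plants. Among the highest were PGY2 (0.41), SAG24 (0.12) and the P1 genes AT4G00810 (0.03) and AT5G47700 (0.01). SAG24 had 248, 679 and 484 FPKM in SW plants and 187, 626 and 470.2 FPKM in IT plants. It stood in a family where SAC52, the major L10 gene, had 624, 1049.6 and 1175 FPKM in SW plants and 487, 1481 and 1170.3 FPKM in IT plants.

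The paralogs of a family were then compared by their share of the family's FPKM. Of the 20 families with 2 or more members, which hold 51 genes, 15 kept one order of their genes over all 6 groups, and the most abundant gene was the same in 15. The largest range of any gene's share over the 6 groups had a median of 7.08 percentage points over the families and was under 5 points in 5 of them. Single-gene families of the list (L12, L18a, L27a, L28, S13 and S15a) have near relatives in the genome that are not members, so no share is given for them.

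**Figure D3:**
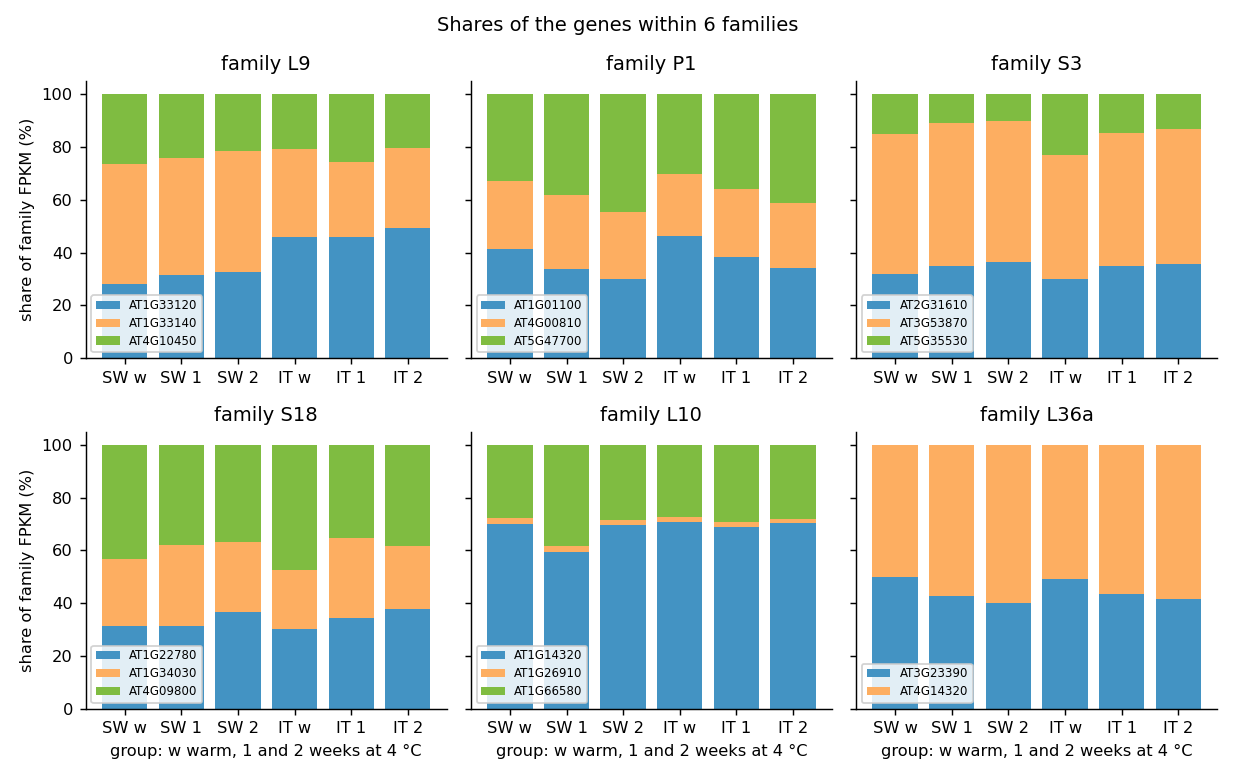
Share of each gene in the summed FPKM of its family (percent, stacked bars) in the 6 families whose shares ranged most, in SW and IT plants, warm (w) and after 1 and 2 weeks at 4 °C. In L9 the ecotypes differ at every time, in P1 and L36a the shares shift with time in both ecotypes, and in L10 one SW group stands apart.

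In the L9 family the ecotypes differed in which gene led. PGY2, known from mutants with altered leaf patterning, made up 45.8% of L9 transcripts in warm SW plants, 44.4% at 1 week and 45.6% at 2 weeks, and 33.1%, 28.4% and 30.3% in IT plants. AT1G33120 made up 27.9%, 31.6% and 32.8% in SW plants and 46.1%, 45.9% and 49.2% in IT plants. PGY2 led in the 3 SW groups and AT1G33120 in the 3 IT groups, with no overlap of their shares. In FPKM, PGY2 had 146, 301 and 313 in SW plants and 76.0, 225 and 148 in IT plants, and AT1G33120 had 89.2, 214 and 225 in SW plants and 106, 365 and 241 in IT plants.

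The split between these 2 genes is uncertain. Their coding sequences are 99.1% identical, their proteins are the same, and their reference transcripts share a stretch of 565 bases, so short reads cannot all be given to one of them. They lie beside each other on chromosome 1 (PGY2 at chr1:12023225-12024783 and AT1G33120 at chr1:12010879-12012547, plus strand, TAIR10.1), 10677 bases apart with no protein-coding gene between. The first 60 coding bases show this. Capitals mark the 13 positions at which the third gene, AT4G10450 on chromosome 4, differs from the pair. The pair do not differ from each other there.

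L9 gene AT1G33120: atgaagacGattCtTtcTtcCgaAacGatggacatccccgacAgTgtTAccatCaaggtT
PGY2: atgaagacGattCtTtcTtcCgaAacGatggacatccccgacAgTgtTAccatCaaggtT
L9 gene AT4G10450: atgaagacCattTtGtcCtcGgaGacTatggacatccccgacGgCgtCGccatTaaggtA

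In the P1 family the shares shifted with time alike in both ecotypes. AT5G47700 made up 32.8% of P1 transcripts in warm SW plants, 38.2% at 1 week and 44.6% at 2 weeks, and 30.4%, 35.8% and 41.1% in IT plants. AT1G01100 made up 41.4%, 33.8% and 30.0% in SW plants and 46.1%, 38.2% and 34.0% in IT plants. The first was thus higher and the second lower at each step in each ecotype, while AT4G00810 stayed between 23.5% and 28.003% in all 6 groups. The coding sequences of AT5G47700 and AT1G01100 are 92.4% identical, with no shared stretch longer than 50 bases.

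The L36a genes moved in a like way. AT4G14320 made up 50.2% in warm SW plants, 57.3% at 1 week and 59.8% at 2 weeks, and 51.0%, 56.6% and 58.2% in IT plants, and AT3G23390 made up the rest. In the S3 family AT5G35530 made up 14.9%, 10.9% and 9.98% in SW plants and 23.04%, 14.7% and 13.04% in IT plants, and AT3G53870 led in every group with 46.8% to 54.3%. In the S18 family RPS18C made up 43.1%, 38.1% and 36.9% in SW plants and 47.4%, 35.3% and 38.1% in IT plants.

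The L10 family shows one group apart. SAG24 made up 38.4% of L10 transcripts in SW plants at 1 week, against 27.2% to 29.1% in the other 5 groups, and SAC52 made up 59.4% there against 68.9% to 70.9%. RPL10B, the third L10 gene, made up 1.57% to 2.30% in all 6 groups. With 1 pooled value per group, whether one library made this value could not be seen.

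The shares of the other families of 3 or 4 genes moved less. In L11 the share of RPL16B was 37.2% to 46.1% and that of RPL16A 2.88% to 5.17%, with AT5G45775 ahead of RPL16B in SW at 1 week alone. In S10 RPS10B held 40.5% to 45.6% and AT4G25740 17.2% to 24.6%. In S14 AT3G11510 held 51.7% to 56.2% and AT3G52580 7.69% to 9.41%. In S28 AT5G03850 held 51.7% to 58.3% and AT3G10090 8.36% to 15.2%.

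Other genes of protein synthesis were measured from lists and are given for comparison. Of 160 other genes annotated to the cytosolic ribosome, 147 were kept, and their median log2 ratio was 0.84 in SW and 1.67 in IT at 1 week and 0.85 in SW and 1.04 in IT at 2 weeks. At 1 week 47 of them were at least 2-fold higher in SW and 127 in IT. Of 17 genes of the plastid ribosome, 16 were kept, with medians of 0.06 in SW and 0.43 in IT at 1 week and 0.57 in SW and 0.42 in IT at 2 weeks. None of these 16 passed 2-fold in either direction in the 4 comparisons of cold with warm.

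**Figure D4:**
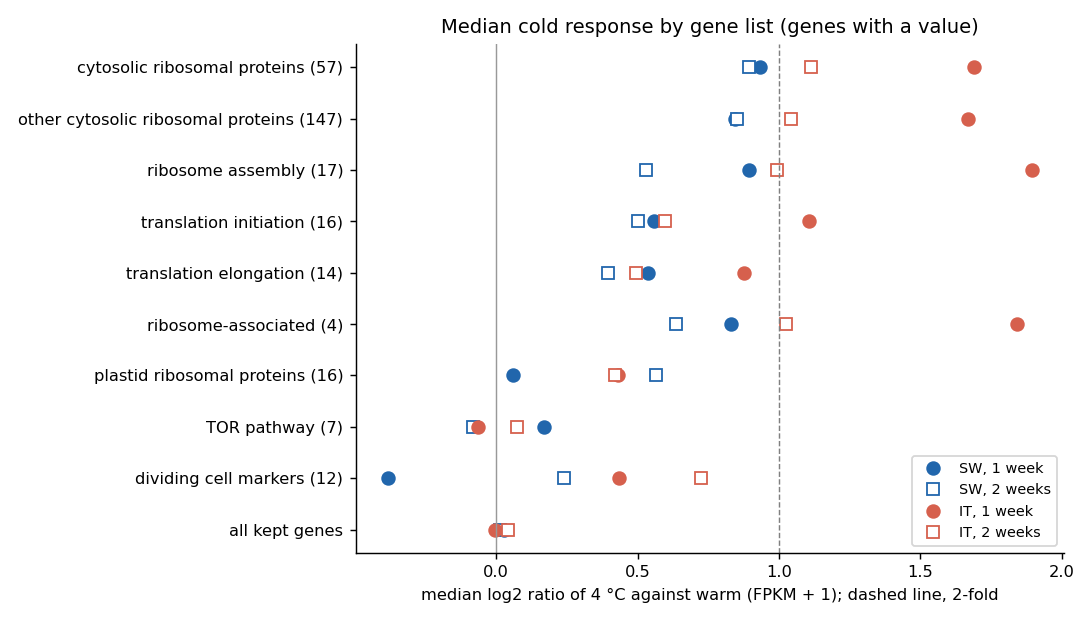
Median log2 ratio of 4 °C against warm in SW (blue) and IT (red), at 1 week (filled) and 2 weeks (open), for the cytosolic ribosomal protein genes, 8 other lists and all kept genes; the number of genes with a value is in brackets. The member medians lie beside the other cytosolic ribosomal protein genes, and the TOR list lies nearer to all genes. The plastid ribosomal protein list does so too, except in SW at 2 weeks. There its median was 0.57, beside 0.90 for the members and 0.01 for all genes.

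Of 17 ribosome assembly genes, 5 in SW and 15 in IT were at least 2-fold higher at 1 week, and 4 in SW and 8 in IT at 2 weeks. FIB2, a nucleolar fibrillarin that methylates ribosomal RNA, had 43.6 FPKM in warm SW plants, 212 at 1 week and 180.0 at 2 weeks, and 25.6, 408 and 160 FPKM in IT plants. REIL1, known in Arabidopsis for late 60S assembly in the cold, had 21.6, 43.3 and 48.0 FPKM in SW plants and 21.5, 43.1 and 44.7 FPKM in IT plants. SW and IT differed by 0.10 or less on the log2 scale at each time, and its 2 week ratios were 1.12 in SW and 1.026 in IT.

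Of 16 translation initiation genes, 10 were at least 2-fold higher in IT and none in SW at 1 week, where the medians were 0.56 in SW and 1.11 in IT. PAB8, a poly(A)-binding protein gene, had the largest 1 week ratio in each ecotype, 0.88 in SW and 1.75 in IT. Of 14 elongation genes, 1 in SW and 5 in IT were at least 2-fold higher at 1 week, and 1 in SW and none in IT lower. At 2 weeks none was higher, and 3 in SW and 2 in IT were lower. The elongation gene EF1Bb2 had 65.2, 129 and 121 FPKM in SW plants and 21.7, 24.8 and 23.8 FPKM in IT plants. ELF5A-3 was at least 2-fold lower at 2 weeks in each ecotype (-1.02 in SW and -1.27 in IT), as was EF1Ba1 (-2.08 in SW and -1.76 in IT). EF1Ba1 was also the gene lower at 1 week in SW (-2.01), where its IT ratio was -0.70. The third gene lower in SW at 2 weeks was ELF5A-1 (-1.13, with -0.85 in IT).

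The RACK1 genes encode a scaffold protein of the small subunit. RACK1C had 87.4, 209.7 and 165 FPKM in SW plants and 44.95, 254 and 121 FPKM in IT plants, with 1 week ratios of 1.25 in SW and 2.48 in IT. TCTP1, a translationally controlled growth gene, was below its warm level in each cold group, at -0.71 in SW and -0.39 in IT at 1 week. Of 7 genes of the TOR pathway none was at least 2-fold higher in the 4 comparisons, and MRF1 was lower in IT at 1 week (-1.37). TOR itself had 9.84, 8.32 and 7.67 FPKM in SW plants and 10.3, 8.29 and 8.46 FPKM in IT plants.

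Members with and without each promoter element are described by their medians, with no test. The 39 members with a site II element had a median 1 week ratio of 0.94 in SW and 1.63 in IT, and the 18 without one 0.93 in SW and 1.80 in IT. The 12 members with a telo box had medians of 1.01 in SW and 1.72 in IT, and the 45 without one 0.92 in SW and 1.69 in IT. At 2 weeks the medians were 1.0302 in SW and 1.16 in IT with a telo box, and 0.87 in SW and 1.07 in IT without one. The members with a telo box had the higher median in all 4 comparisons, by little in IT at 1 week (1.72 against 1.69). For site II the 2 week medians were 0.91 in SW and 1.04 in IT with it, and 0.86 in SW and 1.16 in IT without it. The 15 members with neither, which include RPL24A, had medians of 0.92 in SW and 1.74 in IT at 1 week. At 2 weeks their medians were 0.83 in SW and 1.13 in IT. Their IT median at 1 week was thus above that of the members with a telo box.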

How the data were processed

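RNA sequencing of 18 libraries was combined by the authors into 6 columns. The deposited table holds FPKM values, 1 per gene and group per the file headers. Per the submitters' processing notes, the tools were TopHat 1.4.1, Cufflinks 2.1.1 and Cuffdiff with TAIR10. Settings, depth, read length and how libraries were pooled: not given in the sources used here. No value per library was used. The planned tests over libraries could therefore not be run. Whether reads of either ecotype, or of near-identical paralogs, were placed evenly was not tested.

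Values were used as deposited, as log2 ratios of FPKM + 1, in 9 comparisons. A gene needed 1 FPKM in at least 1 group, and one listed at 0 in a compared group had no ratio. A ratio of 1 or more in size (2-fold) was counted. Names, promoters (250 bases) and coding sequences came from the RefSeq TAIR10.1 annotation, which held 32813 of the table's loci and all 57 members. Relatives outside the list were sought with BLAST+ 2.17.0 at 70% identity over 70% of the length. Other ribosomal protein genes were taken from annotation records, and the remaining lists were written by hand. Named members were the 5 highest and 5 lowest ratios of a comparison, those at 2-fold as far as they could be described singly, those under 1 FPKM, and the largest and smallest shares of families of 3 or 4 genes. The members and lists were chosen with earlier results of these data known. The counting was tested on simulated data. Python 3.11.15 and pandas 2.3.3 were used.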

Additional observations from a re-analysis of the deposited data

Results flagged for a closer look

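The course from 1 week to 2 weeks at 4 °C differed between the ecotypes. The median log2 ratio of 2 weeks to 1 week was 0.01 in SW and -0.59 in IT, and the difference of these medians was 0.60. The 2 weeks value was above the 1 week value in SW and below it in IT for 30 of the 57 members. The share of all genes with this pair of directions was not computed. In SW 31 members were above and 26 below their 1 week value, and in IT 56 were below it. The 30 restates these counts and is not a separate result. Over all genes 49.4% were above in SW and 48.8% were below in IT. The difference between the ecotypes was not tested, since each group has 1 pooled value. The direction in SW also changed with scaling, as given below.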

How the results depend on the processing

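The 9 member medians and 140 2-fold differences were recomputed under 7 alternatives. Each such difference is 1 member in 1 comparison, so a gene can count more than once. Pseudocounts of 0.1 and 0.25, no filter and a filter of 5 FPKM moved no median by over 0.1 on the log2 scale and ended no 2-fold difference. Upper-quartile scaling ended 24 of the 140, reference-gene scaling (12 genes) 16 and quantile normalization 68, and none changed sign. Medians of 1 week against warm became 0.83 in SW and 1.58 in IT under upper-quartile scaling, 1.86 in IT under reference-gene scaling, and 0.53 in SW and 1.14 in IT after quantile normalization. Those of 2 weeks against warm became 0.51 in SW under reference-gene scaling, and 0.47 in SW and 0.83 in IT after quantile normalization. Those of 2 weeks against 1 week became -0.35 in SW and -0.69 in IT under reference-gene scaling and -0.075 in SW and -0.30 in IT after quantile normalization, the SW value having changed sign. SW against IT became 0.54 in the warm and -0.072 at 2 weeks under reference-gene scaling, and 0.26 and -0.084 after quantile normalization, both 2 week values with the sign changed. Reference-gene scaling itself moved the median of all genes to 0.14 in IT at 1 week against warm, to -0.30 in SW at 2 weeks against warm, to -0.31 in SW at 2 weeks against 1 week, and in SW against IT to 0.15 in the warm and -0.24 at 2 weeks. Relative to all genes the 4 cold medians stayed between 0.46 and 1.72 under each of the 7 alternatives. The counts of members at 2-fold under upper-quartile scaling were 12 in SW at 1 week (21.1%, beside 6.65% of all genes) and 29 in IT at 2 weeks (50.9%, beside 5.76%). The search for similar genes added none to the 20 families, so their shares could not change and this was no check on them. The members' percentage of all FPKM moved by under 10% of its value when genes with a 0 were left out. For the other alternatives the cause of a change was not tested. No paired analysis was possible because the columns are pooled and carry no replicate number, and for the same reason leaving out each replicate was not run.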
